A study of Arabidopsis thaliana with 4 samples.

Results

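Later monolignol synthesis was followed in the funiculus, the stalk that joins each seed to the fruit wall, through the 10 Arabidopsis thaliana genes HCT, C3H1, CSE, CCoAOMT1, CCR1, CCR2, F5H1, COMT1, CAD4 and CAD5. They were taken by locus identifier from a table of 37051 loci, and all 10 passed the filter on low counts, together with 18082 other genes. Polyadenylated RNA came from pools of 100 funiculi at flower stage 17, with 2 libraries from wild-type Columbia plants and 2 from seedstick (stk) mutants, all grown at 22 °C in 16 h of light and 8 h of dark. STK, a MADS-box gene, is known for its role in ovule development and seed detachment, and the comparison asks which transcripts differ when it is mutated. Which stk allele was used is not given in the labels.

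Monolignols are the alcohols from which lignin, the stiffening polymer of xylem, fibres and dehiscence zones, is built. After the entry steps have made p-coumaroyl-CoA, HCT joins it to shikimate, C3H1 adds a ring hydroxyl and CSE releases caffeate, which is made into a CoA ester again. CCoAOMT1 then adds a methyl group, CCR enzymes reduce the CoA ester to an aldehyde, and CAD enzymes reduce the aldehyde to the alcohol. F5H1 and COMT1 form the branch towards syringyl units, which carry an additional methoxyl group compared with guaiacyl units.

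Library totals ran from 4033589 counts in stk replicate 1 to 12099218 in stk replicate 2. Levels are given as CPM, read counts scaled to a common library total after correction with TMM, an edgeR method that adjusts library sizes for composition. STK (AT4G09960) stood at 374 and 555 CPM in wild-type funiculi and 238 and 326 CPM in stk funiculi. Its log2 fold change was -0.72 ± 0.43 (SE) and did not pass (adjusted p = 1, edgeR). The mutant libraries lay below the wild-type ones, but counts of a whole gene cannot check a mutation whose transcript persists, and AT4G09950 overlaps STK from the other strand. The labels call the libraries of a genotype biological replicates.

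None of the 10 genes passed the comparison of stk with wild type (edgeR quasi-likelihood test, adjusted p = 1 for each), where 0.00553% of all tested genes did. At an unadjusted p under 0.05, COMT1 alone was picked out, with a higher level in stk, beside 3.36% of all tested genes (2.22% higher and 1.14% lower), and DESeq2 and limma-voom also called 0 of the 10 (0.857% and 0.205% of all tested genes). Without the filter on low counts edgeR called CCR2 and COMT1, among 275 called of 23452 tested genes. The log2 fold change was positive for 9 of the 10, with a median of 1.07, against 45.8% positive and a median of -0.075 over all tested genes. The median was 0.069 without stk replicate 1, with 6 positive, and 0.67 without wild-type replicate 2, with 7 positive. The stk values lay above both wild-type values for CCR1, F5H1 and COMT1, 3 of the 10, where 15.9% of all tested genes did so, and below them for 0 of the 10 (16.6%). F5H1 passed the filter on low counts only through its stk libraries. In a bulk sample, fewer cells of a type and less RNA per cell cannot be told apart.

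**Figure D1:**
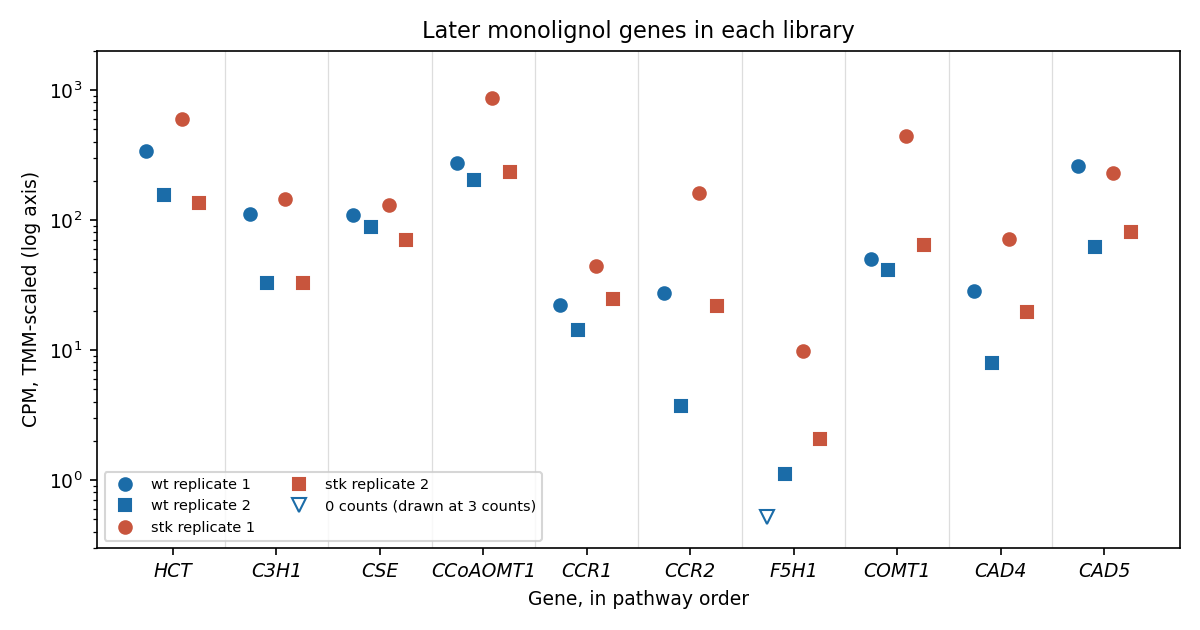
TMM-scaled CPM (log axis) of each gene, in pathway order, with a point per library; the open triangle stands for 0 counts of F5H1 in wild-type replicate 1 and is drawn at the level of 3 counts. stk replicate 1 is the highest library for 9 of the 10 genes, and replicate 1 lies above replicate 2 in both genotypes for 9 of the 10.

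For the shikimate steps the genotype means lay closer together than the replicates of either genotype. HCT (AT5G48930), the acyltransferase that makes the shikimate ester, stood at 341 and 156 CPM in wild-type funiculi and 599 and 135 CPM in stk funiculi. Its 2 stk values enclosed both wild-type values, with a log2 fold change of 0.56 ± 0.71 (SE) and of -0.86 without stk replicate 1. C3H1 (AT2G40890), also named CYP98A3, the cytochrome P450 that hydroxylates that ester, stood at 112 and 32.4 CPM in wild-type funiculi and 145 and 32.7 CPM in stk funiculi. The replicate 2 libraries held nearly the same C3H1 level in both genotypes, and the log2 fold change of 0.30 ± 0.79 (SE) became -1.12 when stk replicate 1 was left out and -0.33 when wild-type replicate 2 was. Genes on the opposite strand cover 4.99% of the C3H1 exons. CSE (AT1G52760), listed in the reference as LysoPL2, encodes the esterase that frees caffeate from caffeoyl shikimate, and its level was 109 and 88.6 CPM in wild-type funiculi and 131 and 70.1 CPM in stk funiculi. It was the steadiest of the 10 between libraries, with a log2 fold change of 0.023 ± 0.45 (SE), which became -0.47 when stk replicate 1 was left out and -0.11 when wild-type replicate 2 was.

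CCoAOMT1 (AT4G34050), which methylates caffeoyl-CoA on the way to guaiacyl and syringyl units alike, stood at 272 and 203 CPM in wild-type funiculi and 869 and 236 CPM in stk funiculi. Only stk replicate 1 stood apart, and stk replicate 2 fell between the wild-type libraries. The log2 fold change was 1.22 ± 0.62 (SE; edgeR unadjusted p = 0.0868, adjusted p = 1), and it was 0.0090 without stk replicate 1.

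Cinnamoyl-CoA reductases carry the first step that is specific to monolignols, and CCR1 is known as the main form of lignifying tissue and CCR2 as one induced in defence. CCR1 (AT1G15950) stood at 22.0 and 14.1 CPM in wild-type funiculi and 44.5 and 24.4 CPM in stk funiculi. Its groups did not overlap, with a log2 fold change of 0.93 ± 0.63 (SE), and 0.46 without stk replicate 1. Annotated genes on the opposite strand cover 77.2% of CCR1's exons, namely the long non-coding RNA AT1G05213 and NRAMP6 (AT1G15960), a metal transporter gene. The libraries do not mark strand, so reads of these genes cannot be told from CCR1 reads there. The rule for reads that fit more than 1 gene is not given, so the CCR1 counts could be too high or too low. NRAMP6 itself, scaled to library totals, stood at 117 and 66.7 CPM in wild-type funiculi and 285 and 198 CPM in stk funiculi, and its part in the CCR1 values was not tested.

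CCR2 (AT1G80820) stood at 27.5 and 3.67 CPM in wild-type funiculi and 161 and 21.6 CPM in stk funiculi. Replicate 1 exceeded replicate 2 by 2.89 on the log2 scale in wild type and by 2.90 in stk, so the groups overlapped although each stk library lay above the wild-type library of the same number. The log2 fold change of 2.56 ± 1.12 (SE; edgeR unadjusted p = 0.053, adjusted p = 1) came to 0.50 when stk replicate 1 was left out and to 4.64 when wild-type replicate 1 was, where CCR2 passed (edgeR adjusted p = 0.00229). Genes on the opposite strand cover 6.29% of its exons. CCR2 made up 55.6% of the CCR1 and CCR2 counts in wild-type replicate 1 (95% exact Clopper-Pearson interval 49.6 to 61.6%) and 20.6% in wild-type replicate 2 (15.2 to 27.0%). In stk it made up 78.4% (75.4 to 81.2%) and 47.0% (42.8 to 51.2%). These shares overlapped between the genotypes, at 38.1 ± 24.8% in wild type and 62.7 ± 22.2% in stk (SD, n = 2 each; exact two-sided permutation p = 0.667). The intervals cover counting error only. Opposite-strand genes cover 77.2% of the CCR1 exons, so the shares could be too high or too low, and their part in these shares was not tested. The difference of 24.6 points became 7.04 or 42.1 when wild-type replicate 2 or 1 was left out. It became 8.84 or 40.3 points when stk replicate 1 or 2 was left out.

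How far reads of such paralogs could be confused was read from the reference. The coding sequences of CCR1 and CCR2 were 75.8% identical in a global alignment, with no identical run over 20 bases, and those of CAD4 and CAD5 were 74.0% identical, with no run over 32 bases. No stretch of 50 bases from the exons of any of the 10 genes occurred elsewhere in the TAIR10.1 genome. The most alike ungapped stretches of 60 bases, taken from the RefSeq annotation of that build and printed along the coding strand, show where the paralogs are hardest to separate, with capitals at the bases that differ within a pair.
CCR1: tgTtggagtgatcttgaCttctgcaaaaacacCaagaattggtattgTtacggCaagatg
CCR2: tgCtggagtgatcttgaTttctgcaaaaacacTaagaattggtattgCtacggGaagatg
CAD4: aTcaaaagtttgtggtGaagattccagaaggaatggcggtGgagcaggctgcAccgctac
CAD5: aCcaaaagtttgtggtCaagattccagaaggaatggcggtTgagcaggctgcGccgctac
The CCR stretches share 55 bases and lie at coding bases 439 to 498 of CCR1 and 424 to 483 of CCR2. The CAD stretches share 56 bases and lie at coding bases 428 to 487 of CAD4 and 425 to 484 of CAD5. Even there the members of each pair differ at several places.

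F5H1 and COMT1, the genes of the syringyl branch, stood higher in each stk library than in either wild-type library, as did 15.9% of all tested genes. F5H1 (AT4G36220), also named FAH1, encodes the P450 that commits the pathway to syringyl units. It was read by 0 and 12 counts in wild type and by 38 and 25 counts in stk, or 0 and 1.10 CPM against 9.83 and 2.06 CPM. In wild-type replicate 1, 3 counts correspond to 0.521 CPM, so F5H1 was near the limit of detection in wild type. It passed the filter on low counts only through its stk libraries, so its place above wild type is tied to its being tested. Its fitted log2 fold change of 3.34 ± 2.63 (SE; adjusted p = 1 in edgeR) carried the widest error of the 10, and without wild-type replicate 2 it rested on a wild-type library with 0 counts. Leaving out stk replicate 1 gave 1.86, and leaving out wild-type replicate 1 gave 2.43.

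COMT1 (AT5G54160), listed in the reference as OMT1, encodes the methyltransferase that acts after F5H1 and also methylates flavonols. Its level was 50.02 and 40.9 CPM in wild-type funiculi and 443 and 63.9 CPM in stk funiculi. The wild-type libraries lay close together, and stk replicate 1 stood far above stk replicate 2. COMT1 had the lowest p of the 10, with a log2 fold change of 2.48 ± 0.81 (SE; edgeR unadjusted p = 0.0168, adjusted p = 1). The adjusted p was 0.155 in DESeq2 and 0.554 in limma-voom, and without stk replicate 1 the log2 fold change was 0.51.

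Ratios within a library do not depend on how libraries are scaled. COMT1 reads per CCoAOMT1 read amounted to 18.4% and 20.2% in wild type and to 51.0% and 27.1% in stk. The log2 ratio was -2.38 ± 0.097 in wild type and -1.43 ± 0.64 in stk (SD, n = 2 each; exact two-sided permutation p = 0.333, the smallest p that 2 against 2 libraries allow). The groups did not overlap, and the difference of 0.95 was 0.49 without stk replicate 1. F5H1 reads per CCoAOMT1 read amounted to 0.543% in wild-type replicate 2 and to 1.13% and 0.873% in stk funiculi, and in wild-type replicate 1 a count of 0 allows up to 0.198%. With that library at its upper limit, the log2 ratio was -8.25 ± 1.03 in wild type and -6.65 ± 0.26 in stk (SD, n = 2 each; exact two-sided permutation p = 0.333, again the smallest possible). The wild-type mean is thus an upper limit, and its SD is not a spread between measured values. The difference was at least 1.6, and it was 0.87 without wild-type replicate 1.

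The last step, from aldehydes to alcohols, rests mainly on CAD4 and CAD5. CAD5 (AT4G34230) stood at 260 and 61.4 CPM in wild-type funiculi and 229 and 80.1 CPM in stk funiculi. Its replicates differed far more than its genotypes, with a log2 fold change of -0.060 ± 0.74 (SE), which became 1.34 when wild-type replicate 1 was left out and 0.51 when stk replicate 2 was. CAD4 (AT3G19450) stood at 28.2 and 7.90 CPM in wild-type funiculi and 71.2 and 19.4 CPM in stk funiculi. The log2 fold change was 1.33 ± 0.84 (SE; adjusted p = 1 in edgeR). Leaving out stk replicate 1 or 2 gave 0.13 or 1.98, and leaving out wild-type replicate 1 or 2 gave 2.53 or 0.68.

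The share of CAD4 among CAD4 and CAD5 counts was much steadier between replicates than either gene. CAD4 made up 9.79% of 1604 counts in wild-type replicate 1 (95% exact Clopper-Pearson interval 8.38 to 11.3%) and 11.4% of 755 in wild-type replicate 2 (9.21 to 13.9%). In stk it made up 23.7% of 1159 counts in replicate 1 (21.3 to 26.3%) and 19.5% of 1210 in replicate 2 (17.3 to 21.9%). Both stk shares lay above both wild-type shares, at 10.6 ± 1.13% in wild type and 21.6 ± 2.99% in stk (SD, n = 2 each; exact two-sided permutation p = 0.333, the smallest that 2 against 2 allow). The difference of 11.03 points was between 8.92 and 13.1 when any 1 library was left out, and 10.9 with counts per kilobase of coding length.

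**Figure D2:**
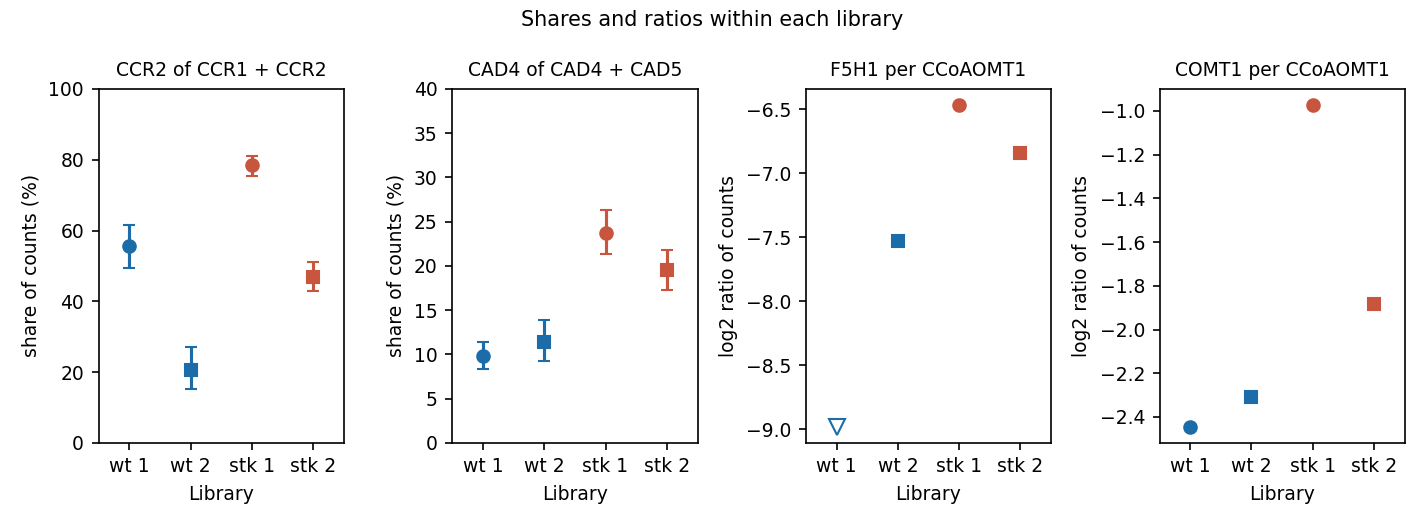
Shares of counts with 95% exact binomial intervals and log2 ratios of counts in each library (wild type in blue, stk in red); the open triangle is an upper limit for a library with 0 counts of F5H1. CAD4 makes up 9.79 and 11.4% of the CAD4 and CAD5 counts in wild type and 23.7 and 19.5% in stk, while the CCR2 shares of the genotypes overlap.

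Per kilobase of exon, CCoAOMT1 and HCT were the most abundant of the 10 in wild type, at 153 ± 31.8 and 138 ± 72.6 CPM per kilobase (SD, n = 2). CAD5 (99.4 ± 86.9), CSE (67.8 ± 9.77), C3H1 (38.2 ± 29.7) and COMT1 (30.4 ± 4.29) followed on the same scale. CAD4 (9.97 ± 7.94), CCR1 (9.22 ± 2.82), CCR2 (7.43 ± 8.04) and F5H1 (0.276 ± 0.391) came last. In this order the wild-type ranges of neighbours overlapped, except between CSE and C3H1, between COMT1 and CAD4 and between CCR2 and F5H1. In stk the order of the first 2 was the same, at 356 ± 289 for CCoAOMT1 and 204 ± 182 for HCT. COMT1 moved from the sixth place to the third, at 169 ± 179 CPM per kilobase, and CCR2 from the ninth to the seventh, at 43.6 ± 47.1. These places rest on stk replicate 1, since in stk replicate 2 alone COMT1 was the fifth at 42.7 and CCR2 the ninth at 10.3 CPM per kilobase. F5H1 stayed lowest at 2.98 ± 2.76, and it was the single stk neighbour whose range did not overlap the one before it. Only 446 of the 1957 exon bases of CCR1 are free of genes on the opposite strand. How reads from the rest were counted is not given, so the place of CCR1 in this order is not settled in either genotype.

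As percentages of the summed level of the 10 genes per kilobase, COMT1 took 4.56 and 7.30% in wild type and 18.0 and 10.2% in stk. CCR2 took 1.79 and 0.47% against 4.69 and 2.46%, and CAD4 took 2.13 and 1.16% against 2.39 and 2.56%. Each of these stk percentages lay above the wild-type ones, as did those of F5H1. HCT went the other way, at 25.8 and 23.1% in wild type and 20.3 and 17.9% in stk. The other 5 genes overlapped between the genotypes, and CCoAOMT1 held between 24.0 and 36.3% in each library. These percentages are parts of a common sum, so they are tied to each other. In CPM the HCT values overlapped between the genotypes, with a log2 fold change of 0.56. No test was made of the percentages.

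The replicate number moved with these genes in both genotypes. Summed over the 10, the level was 1222 and 609 CPM in wild-type funiculi and 2703 and 685 CPM in stk funiculi, so wild-type replicate 1 stood above stk replicate 2. In both genotypes all but F5H1 had the higher value in replicate 1, as did 24.3% of all tested genes. The median log2 ratio of replicate 1 to replicate 2 was 0.88 in wild type and 2.02 in stk over the 10 genes, against -0.079 and -0.17 over all tested genes. All but CAD5 were highest in stk replicate 1, the shallowest library, where 28.2% of all tested genes had their highest value. The labels do not say what the replicate numbers mark.

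**Figure D3:**
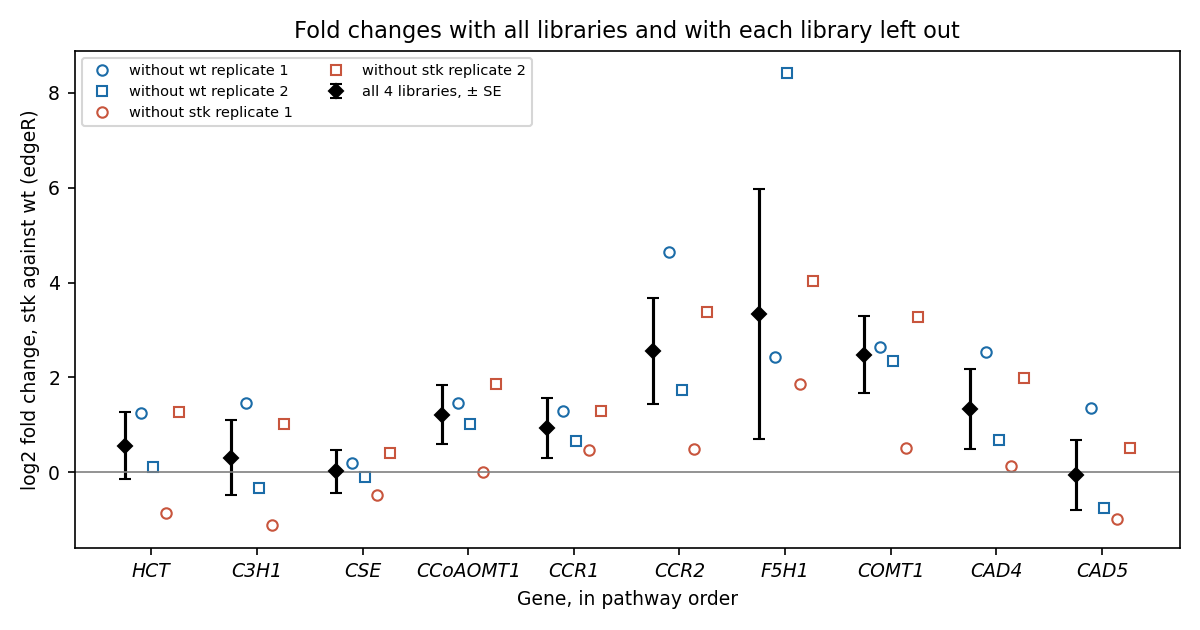
edgeR log2 fold change of stk against wild type for each gene, with all 4 libraries (black, ± SE) and with each library left out in turn (open symbols). Without stk replicate 1 the values of HCT, C3H1, CSE and CAD5 are negative and that of CCoAOMT1 is 0.0090, while CCR1, CCR2, F5H1, COMT1 and CAD4 stay positive in every one of these fits.

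Of 22 family relatives of the 10, 6 had no counts in any library and 11 were tested, with a median log2 fold change of 0.73 (6 positive) and 0 past the threshold in edgeR. Leaving out stk replicate 2 turned the median to -0.063, and leaving out wild-type replicate 1 or stk replicate 1 gave 0.22 or 0.40. CAD9 (AT4G39330), of the same dehydrogenase family, was more abundant per kilobase than CAD5 in every library, at 588 and 727 CPM per kilobase in wild type and 421 and 802 in stk. CAD1 (AT1G72680) stood at 20.9 and 22.7 CPM in wild-type funiculi and 21.0 and 17.4 CPM in stk funiculi. CAD8 (AT4G37990), also named ELI3-2, was read in the replicate 2 libraries alone, at 2.94 CPM for wild type and 17.7 CPM for stk. CCoAOMT7 (AT4G26220) resembled CCoAOMT1 in being highest in stk replicate 1, at 8.10 and 3.31 CPM in wild-type funiculi and 31.8 and 7.98 CPM in stk funiculi. CRL1 (AT2G33590), a CCR-like gene and the relative with the lowest p, stood at 45.0 and 30.5 CPM in wild-type funiculi and 73.0 and 62.5 CPM in stk funiculi (log2 fold change 0.84 ± 0.45 SE; edgeR adjusted p = 1).

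Genes that draw on the same aldehydes or store their products did not share one direction. REF1 (AT3G24503), an aldehyde dehydrogenase that turns coniferaldehyde and sinapaldehyde into ferulate and sinapate, stood at 32.0 and 53.2 CPM in wild-type funiculi and 7.25 and 23.1 CPM in stk funiculi. SNG1 (AT2G22990), which makes sinapoylmalate from sinapoylglucose, stood at 2546 and 1019 CPM in wild-type funiculi and 560 and 663 CPM in stk funiculi. For both genes the stk values lay below the wild-type values, with log2 fold changes of -1.47 ± 0.71 and -1.54 ± 0.53 (SE), and neither passed (edgeR adjusted p = 1). BGLU45 (AT1G61810) and BGLU46 (AT1G61820) encode beta-glucosidases that release monolignols from their glucosides. BGLU46 stood at 11.9 and 0 CPM in wild-type funiculi and 73.0 and 55.8 CPM in stk funiculi, and BGLU45 at 102 and 1.377 CPM against 122 and 76.8 CPM. Among UGT72E enzymes, which add that glucose, UGT72E1 and UGT72E2 had no counts in any library. This list also holds ATR1 (AT4G24520) and ATR2 (AT4G30210), genes of P450 reductases rather than of side-branch enzymes. Their log2 fold changes were -0.52 and 0.58. Of the 10 genes in the list 7 were tested, with a median of -0.52 (3 positive), which is the value of ATR1. In edgeR 0 passed the threshold, and 0 were higher and 1 lower at an unadjusted p under 0.05. The median turned to 0.46 without wild-type replicate 1, to 0.047 without stk replicate 2, to 0.043 with no filter on low counts and to 0.019 at a mean of at least 5 CPM, and it was -0.27 without stk replicate 1.

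Upstream sequence was read for AC elements, short motifs known to be bound by MYB factors in phenylpropanoid genes. In the 300 bases before each annotated gene start, AC-I (ACCTACC), AC-II (ACCAACC) and AC-III (ACCTAAC) were searched on both strands, and no matches overlapped. An element was found for 5 of the 10 genes, AC-I for CCoAOMT1 and AC-II for HCT, C3H1, CCR1 and CAD5, while 7.17% of 27438 protein-coding genes hold one (1.33% AC-I, 3.18% AC-II, 2.93% AC-III). The stretches that hold them are shown for the 5 genes in RefSeq's TAIR10.1, along each gene's own strand, with the element in capitals.
HCT: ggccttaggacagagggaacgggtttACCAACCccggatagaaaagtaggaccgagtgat
C3H1: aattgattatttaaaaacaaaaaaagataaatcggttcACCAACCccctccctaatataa
CCoAOMT1: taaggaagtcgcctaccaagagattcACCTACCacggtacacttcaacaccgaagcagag
CCR1: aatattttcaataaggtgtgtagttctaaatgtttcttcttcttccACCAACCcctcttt
CAD5: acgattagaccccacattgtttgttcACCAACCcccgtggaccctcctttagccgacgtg
They lie at chr5:19838292-19838351 (minus strand) for HCT, chr2:17060653-17060712 (minus strand) for C3H1, chr4:16310170-16310229 (plus strand) for CCoAOMT1, chr1:5478543-5478602 (plus strand) for CCR1 and chr4:16389145-16389204 (minus strand) for CAD5, outside any annotated gene. The elements begin 90, 22, 213, 14 and 238 bases before the gene start in the same order. In 1000 bases upstream, 8 of the 10 genes hold an element, against 22.1% of protein-coding genes, with CCR2 and COMT1 holding none. Log2 fold changes ran from -0.060 to 1.22 in the 5 genes with an element within 300 bases and from 0.023 to 3.34 in the 5 without, a split chosen after the values were seen and not tested.

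Of the 9 entry genes, 5 were highest in stk replicate 1, 3 in wild-type replicate 1 and 1 in stk replicate 2. PAL, C4H and 4CL genes together summed to 1107 and 519 CPM in wild-type funiculi and 2468 and 470 CPM in stk funiculi. All 9 were tested, 6 had a positive log2 fold change and the median was 0.89, but without stk replicate 1 the median was -0.93, with 1 positive, and without stk replicate 2 it was 1.47. None passed edgeR, and 0 were higher and 1 lower at an unadjusted p under 0.05. C4H (AT2G30490), the P450 that hydroxylates cinnamate, stood at 184 and 131 CPM in wild-type funiculi and 551 and 147 CPM in stk funiculi, with stk replicate 2 between the wild-type libraries as for CCoAOMT1. PAL3 (AT5G04230), with the lowest p of the entry genes, was lower in both stk libraries, at 101 and 25.9 CPM against 10.6 and 10.7 CPM (edgeR adjusted p = 0.851).

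Downstream, 12 laccase and peroxidase genes of lignin polymerisation summed to 253 and 85.9 CPM in wild-type funiculi and 2569 and 895 CPM in stk funiculi. Of these 11 were tested, with a median of 1.53 (10 positive), 0 past the edgeR threshold and 5 higher and 0 lower at an unadjusted p under 0.05. Some of them, with few wild-type counts, passed the filter on low counts only through stk libraries, which bears on these values. With 12 tested, the median was 0.22 (6 positive) without stk replicate 1 and 2.67 (11 positive) without wild-type replicate 1. PER64 (AT5G42180), a peroxidase linked to lignin deposition, had the lowest p and stood at 76.5 and 19.7 CPM in wild-type funiculi and 1233 and 749 CPM in stk funiculi (edgeR adjusted p = 0.329). PER64 alone gave 1233 of the 2569 CPM summed in stk replicate 1 and 749 of the 895 CPM in stk replicate 2. Its level in stk replicate 2 was also far above both wild-type levels, and it passed in DESeq2 (adjusted p = 2.51e-08) and limma-voom (adjusted p = 1.79e-05). Of 8 secondary wall genes, all tested, 8 were positive with a median of 2.95, and 6 were higher and 0 lower at an unadjusted p under 0.05. Their summed level was 258 and 98.0 CPM in wild-type funiculi and 2182 and 251 CPM in stk funiculi, and without stk replicate 1 their median was 0.69. FLA11 (AT5G03170), a fasciclin-like protein of secondary walls, had their lowest p, at 14.4 and 8.35 CPM against 213 and 35.9 CPM (adjusted p = 0.668 in edgeR and 0.0113 in DESeq2).

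Regulators of lignin and secondary wall genes had a median of 2.63 over 12 tested of 17, with 10 positive and 0 past the edgeR threshold. Some, such as NST1 (6 and 1 counts in wild type) and MYB83 (4 and 12), passed the filter on low counts only through stk libraries. For these the positive sign is tied to being tested, which bears on this median and on the count of positives. At an unadjusted p under 0.05, 5 were higher and 1 lower, and without stk replicate 1 the median was 1.53. Among direct activators of lignin genes, MYB58 had no counts in any library. MYB63 (AT1G79180) stood at 0.72 and 4.59 CPM in wild-type funiculi and 34.2 and 6.42 CPM in stk funiculi. MYB85 (AT4G22680) had 0 counts in both wild-type libraries and 60 and 4 counts in stk. For MYB20 (AT1G66230) the genotypes overlapped, at 8.28 and 24.0 CPM in wild-type funiculi and 17.9 and 14.1 CPM in stk funiculi (log2 fold change -0.02). MYB103 (AT1G63910), known to be needed for F5H1 expression, stood at 3.60 and 0 CPM in wild-type funiculi and 90.1 and 5.84 CPM in stk funiculi. Of the repressors of phenylpropanoid genes, MYB4 (AT4G38620) stood at 48.2 and 42.8 CPM against 80.2 and 113 CPM, and MYB32 (AT4G34990) at 54.7 and 67.6 CPM against 27.2 and 24.8 CPM (edgeR adjusted p = 1 for both). NST1 (AT2G46770), a NAC switch of fibre walls, had the lowest p of the regulators, at 1.08 and 0.092 CPM against 59.3 and 24.4 CPM (adjusted p = 0.418 in edgeR and 9.43e-05 in DESeq2).

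**Figure D4:**
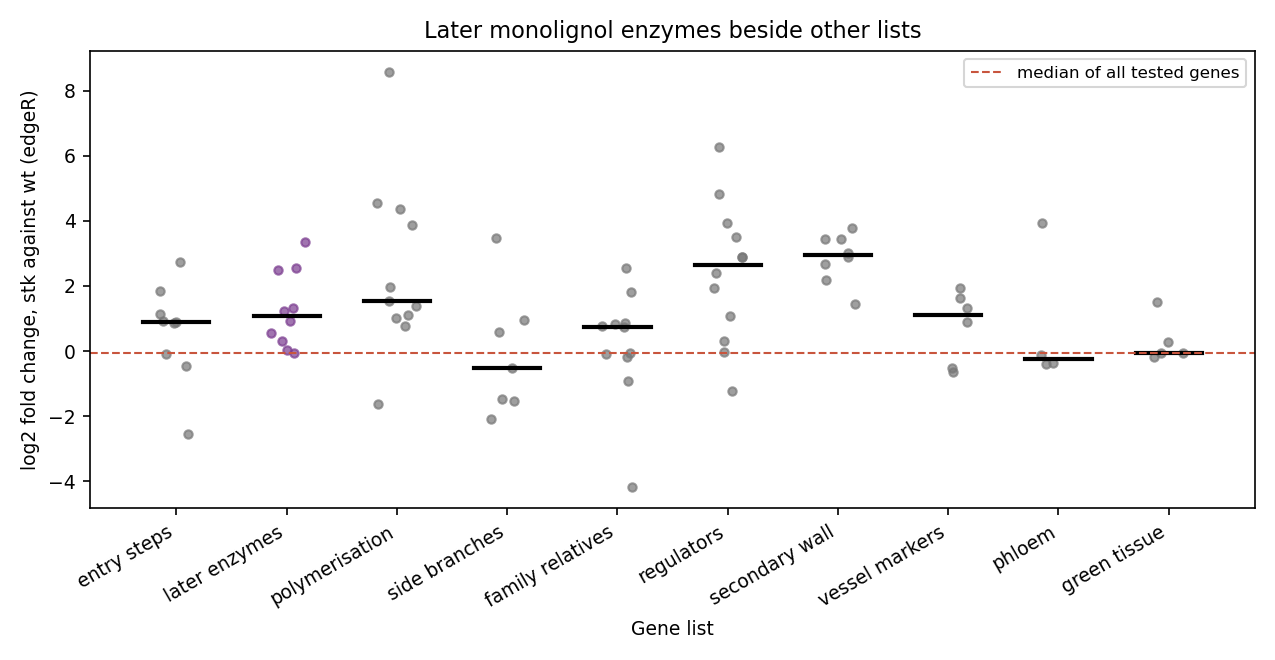
edgeR log2 fold change of stk against wild type for each tested gene of 10 lists, with the list's median as a bar and the median of all tested genes (-0.075) as a dashed line. The later enzymes (purple, median 1.07) lie between the entry steps (0.89) and lignin polymerisation (1.53), and the secondary wall genes have a median of 2.95.

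Markers of cell types that a dissected funiculus could hold were read beside these values. The 6 vessel markers summed to 86.4 and 40.4 CPM in wild-type funiculi and 167 and 95.4 CPM in stk funiculi, with a median of 1.10 (4 positive, 0 past the edgeR threshold). That median turned to -2.02 (2 positive) without stk replicate 2. XCP2 (AT1G20850), a xylem cysteine protease, had their lowest p, at 58.1 and 21.2 CPM against 152 and 46.0 CPM. Its relative XCP1 stood at 18.4 and 7.99 CPM against 4.399 and 13.7 CPM. RNS3, a nuclease gene, stood at 1.62 and 2.75 CPM against 10.35 and 6.66 CPM, and BFN1, another, was at 0 in both replicate 1 libraries and at 6.06 and 19.0 CPM in the replicate 2 libraries of wild type and stk. The vessel switches VND7 and VND6 stayed at or below 7.20 CPM in each library, and VND6 was at 0 in stk replicate 1. The 5 phloem genes summed to 1802 and 420 CPM in wild-type funiculi and 1300 and 644 CPM in stk funiculi, higher in replicate 1 in both genotypes, with RTM1 at 0 throughout. Of 4 tested, 1 had a positive log2 fold change and 3 a negative one, with a median of -0.26. The positive one was SEOR1 (AT3G01680), a sieve element protein and the gene with their lowest p. It stood at 2.699 and 4.96 CPM against 70.9 and 48.4 CPM (adjusted p = 0.329 in edgeR and 4.92e-05 in DESeq2). Seed coat markers, 6 genes with TT16 at 0 throughout, summed to 55.4 and 75.0 CPM against 60.04 and 104 CPM. TT2 had their lowest p, at 36.3 and 67.8 CPM against 52.8 and 93.2 CPM. It was the 1 positive of 3 tested, and their median was -0.997. Embryo and endosperm markers, 7 genes, summed to 121 and 6.89 CPM against 41.2 and 12.8 CPM, the storage protein gene CRU3 giving 95.2 CPM of wild-type replicate 1. Their median was -0.665, with 2 of 4 tested positive. The 4 valve margin genes summed to 75.0 and 46.4 CPM against 48.1 and 40.6 CPM, and IND, the defining factor, was at or near 0. ADPG1, a pectin-degrading enzyme, had their lowest p, at 54.7 and 9.27 CPM against 2.59 and 1.89 CPM. Of 3 tested, 1 was positive and 2 were negative, with a median of -0.41. The 5 green tissue genes summed to 10060 and 4436 CPM against 7415 and 6935 CPM. CAB3, a chlorophyll-binding protein gene, had their lowest p, at 168 and 80.7 CPM against 277 and 433 CPM. All 5 were tested, and 2 were positive and 3 negative, with a median of -0.051. The median of each of these cell type lists changed sign when particular libraries were left out. None of the genes in these lists passed edgeR, and their part in the values of the later enzymes was not tested.

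Across the 4 libraries, the gene nearest to the mean profile of the 10 was RWA1 (AT5G46340), of the family needed for wall polysaccharide acetylation. Nearness was measured as the Euclidean distance between log2 CPM profiles centred on each gene's mean, over 15562 other genes whose mean reached 5 CPM. RWA1 lay at a distance of 0.16 on the log2 scale and stood at 92.7 and 47.7 CPM in wild-type funiculi and 283 and 80.0 CPM in stk funiculi. The next were AT5G42010, annotated as a WD40 repeat protein, AT1G13930, annotated as oleosin-B3-like, AT5G15537 and AT5G67550, both of uncharacterised products, and AT1G10090, annotated as responsive to dehydration, at 0.20 to 0.28. Among the 10 themselves, CCoAOMT1 lay nearest at 0.35, CAD4 at 0.76 and CCR1 at 0.81, and CCR2 and F5H1 farthest at 2.13 and 4.10. Within the median distance of the 10, at 1.11, lay 5.04% of the other genes, and within the largest, that of F5H1, lay 88.9%.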

How the data were processed

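The authors deposited raw read counts per gene for 37051 loci in 4 libraries, from libraries made, per the labels, with a TruSeq RNA kit, which keeps no strand. The submitters' processing notes name, with no role, featureCounts 1.6.3 and STAR 2.7.0, as well as Trimmomatic 0.38 and DESeq2 1.38.3. The sources used here do not give build, annotation, strand setting or the rule for multiple hits. Each locus was found in the gene table of TAIR10.1, whose genome and annotation gave lengths, overlaps and sequences. No protein table was used, so coding sequences were aligned instead (Biopython 1.88).

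Counts were tested over 18092 genes with edgeR 4.0.16 in R 4.3.3 (quasi-likelihood test, TMM, filterByExpr, genotype as the single term, Benjamini-Hochberg threshold 0.05). Standard errors came from the F statistic. TMM factors lay between 0.96 and 1.068. In the deepest and shallowest library 3 counts equal 0.248 and 0.744 CPM. Shares and ratios were compared by exact permutation of libraries (SciPy 1.17.1). DESeq2 1.42.0, limma-voom (limma 3.58.1), other scalings and filters, a replicate block and each library left out were alternatives.

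The 10 members and the 12 other lists were chosen with earlier results of these data known. The text names STK, the 10 members, the listed member with the lowest p (or up to 4 past the threshold), any entry, relative, side branch, regulator or vessel gene, and the 6 nearest profiles.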

Additional observations from a re-analysis of the deposited data

How the results depend on the processing

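Over 11 alternatives, CCR1, CCR2, CCoAOMT1, COMT1 and CAD4 kept a positive log2 fold change, as did F5H1 over the 10 that tested it, since a mean of at least 5 CPM left F5H1 out. The direction turned for CSE and CAD5 with limma-voom (-0.086 and 0.077) and with the replicate block (-0.037 and 0.098). With a library left out the log2 fold change ran from -0.86 to 1.26 for HCT, from -1.12 to 1.47 for C3H1, from -0.47 to 0.40 for CSE and from -0.98 to 1.34 for CAD5. Of the 10 genes, edgeR called 2 without the filter on low counts, CCR2 (adjusted p = 0.000644) and COMT1 (adjusted p = 0.000152), and 1 with the replicate block, CCR2 (adjusted p = 0.0142). It called between 0 and 1 with a library left out. The cause was not tested. In the alternatives that did not call them, the adjusted p lay between 0.171 and 1 for CCR2 and between 0.0656 and 1 for COMT1. Of 83 tested genes of the other lists, edgeR called 0 (24 at an unadjusted p under 0.05), DESeq2 9, limma-voom 1, edgeR without the filter 21, with the replicate block 15 and with a library left out between 0 and 18. Over all tested genes edgeR called 1, DESeq2 155, limma-voom 37, edgeR without the filter 275, edgeR at a mean of at least 5 CPM 0 (567 at an unadjusted p under 0.05), edgeR with the replicate block 169, and between 5 and 198 with a library left out. The labels share replicate numbers without saying that they pair libraries, and the deviations of the replicate 1 libraries from their group means correlated across genes with r = 0.244. Log2 CPM over all tested genes correlated with r = 0.853 between the replicate 2 libraries of the genotypes and 0.664 between the replicate 1 libraries. Within a genotype r was 0.713 in wild type and 0.75 in stk, so the replicate 2 libraries were more alike than replicates of either genotype. The median log2 fold change of the 10 was between 0.87 and 1.09 under the other tools, scalings and filters, 0.92 with the block, and between 0.069 and 1.58 with a library left out. The shares and ratios kept their direction under every alternative run for them. For the CAD4 share and the F5H1 and COMT1 ratios this was fixed in advance. Their groups did not overlap, so leaving out a library could not turn them. Scaling by coding length shifts a log2 ratio equally in every library, so it could not change the differences of the ratios. Depth limits F5H1 most, with at most 38 counts in a library. With 2 libraries per genotype, the permutation tests could not pass 0.05.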
